A study of Mus musculus with 6 samples.

Results

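Macrophages with Mrc1 or F13a1 transcripts and no detected Arg1 transcript were examined in mouse pancreatic tumours. A cell was taken from a library if it had at least 500 UMIs (unique molecular identifiers, each counting 1 captured transcript), over 200 genes and under 10% mitochondrial UMIs. Its UMIs of C1qa, C1qb and C1qc had to make up at least 0.2% of all, and those of S100a8 and S100a9 under 1%. It had no Cd3e or Arg1 UMI, at most 1 UMI of Mki67 and Top2a together, and at least 2 UMIs of Mrc1 and F13a1 together. The cells were thus chosen by their own measured UMIs of these genes, whose levels are given as description only. The 2569 members are called gated cells here although no sorting was involved, and their numbers per library were 263 (OE-Vector 1), 982 (OE-MLKL 1), 617 (OE-MLKL 2) and 707 (OE-MLKL 3). They came from 74546 cells in all, of which 10010 met every condition other than those on Arg1, Mrc1 and F13a1 and are called C1q macrophages.

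The tumours grew for 4 weeks in the pancreas of C57BL/6 mice, 6 to 8 weeks old, after injection of KPC cells, a mouse pancreatic cancer line. The KPC cells of the OE-Vector group carried an empty vector and those of the OE-MLKL group an overexpression construct of Mlkl, while the macrophages came from the unmodified host. The labels give 3 tumours per group, and count matrices of 1 OE-Vector tumour and 3 OE-MLKL tumours were used. The other OE-Vector tumours, replicates 2 and 3, were not analysed here. Values are given throughout in the order OE-Vector 1, OE-MLKL 1, OE-MLKL 2 and OE-MLKL 3.

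C1q, made by macrophages, starts the classical complement cascade and tags dying cells for uptake. Mrc1 encodes the mannose receptor CD206, an endocytic lectin, F13a1 the A subunit of coagulation factor XIII, which crosslinks fibrin, and Dab2 a clathrin adaptor of endocytosis. All are often seen in tissue-resident and alternatively activated macrophages. Arg1 encodes arginase 1, which breaks down arginine and marks many macrophages in hypoxic parts of tumours.

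The 4 libraries held 150591289 to 169978362 UMIs each. Mlkl (ENSMUSG00000012519, chromosome 8, 111311797 to 111338177, minus strand, GRCm38, with Gm45712 on the other strand) overlapped between the groups, at 13.7, 8.09, 12.1 and 15.8 CPM (the UMIs of a gene scaled to the same total in every library) over all cells and 9.08, 6.54, 11.3 and 8.36 CPM in the gated cells. The libraries labelled OE-MLKL 1 and 2 lay below OE-Vector 1 over all cells, and those labelled OE-MLKL 1 and 3 in the gated cells. Whether these counts include transcripts of the construct was not established, so Mlkl does not check the group labels on which the comparison of OE-MLKL with OE-Vector rests. Barcodes that also occurred in another library made up 1.57% to 1.70% of cells, among them 4, 20, 3 and 8 gated cells. A score against simulated doublets marked 7.98%, 10.2%, 15.9% and 10.6% of the gated cells. They were kept. The study's methods describe its mice as littermates of matched age, while which tumours shared a litter is not given in the sources used here. No p-value here covers spread beyond these libraries.

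The gated cells had a median of 7070, 3861, 4175 and 6458 UMIs. Their most abundant transcripts, as CPM over the summed UMIs of a library, were Apoe, a lipid carrier, at 17551 to 28364, Tmsb4x, an actin-binding peptide, at 7230 to 23957, and Fth1, the ferritin heavy chain, at 8100 to 11837. Lyz2, Cd74, Psap, Ctss, Ctsb, Fcer1g and Tyrobp, all abundant in macrophages, were also among the 20 leading genes. The profiles of 2 libraries correlated at r = 0.886 to 0.954 over 6290 genes on the log2(CPM + 1) scale, a correlation across genes, which are not independent. Within a library, the gated cells correlated with Arg1-positive C1q macrophages at 0.974 to 0.987 and with C1q macrophages low in Mrc1 and F13a1 at 0.940 to 0.977.

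Mrc1, which the gate used, stood at 597, 630.3, 1008 and 661 CPM in the gated cells, and F13a1 at 305, 532, 925 and 338 CPM. In T cells of the same libraries, which should lack both and so show RNA from outside the cell, Mrc1 was 7.45, 5.56, 12.2 and 9.93 CPM and F13a1 4.66, 4.98, 14.7 and 12.6 CPM. These T cells also had to lie below the C1q threshold of the gate, so their levels may understate RNA from outside. In barcodes of at most 100 UMIs, which hold free RNA, Mrc1 was 103, 79.5, 116 and 89.2 CPM and F13a1 71.3, 74.8, 118 and 71.3 CPM, also below the gated cells in every library. Dab2, not used by the gate, was 766, 362, 615 and 731 CPM in the gated cells and 14.6, 6.73, 10.1 and 15.6 CPM in T cells. Every cell was also thinned to 1000 UMIs, with the classes kept as drawn at full depth. A Dab2 UMI was then found in 55.04, 32.6, 44.7 and 46.9% of gated cells and in 1.17, 0.357, 0.638 and 1.64% of T cells. Dab2 thus stood far above its level in these T cells, chosen to be low in C1q, in every library and was lowest in OE-MLKL 1. Its level in free RNA is not given here.

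The promoters of these 3 genes are shown because they carry the names of the class. They are RefSeq sequences of GRCm38.p6 from 250 bases before to 50 bases after the start of the gene, read 5′ to 3′ on the strand of the gene. Capitals mark GAGGAA or its reverse complement, the core bound by PU.1, a transcription factor of macrophages and other myeloid cells.
Mrc1, chr2:14229164-14229463, plus strand: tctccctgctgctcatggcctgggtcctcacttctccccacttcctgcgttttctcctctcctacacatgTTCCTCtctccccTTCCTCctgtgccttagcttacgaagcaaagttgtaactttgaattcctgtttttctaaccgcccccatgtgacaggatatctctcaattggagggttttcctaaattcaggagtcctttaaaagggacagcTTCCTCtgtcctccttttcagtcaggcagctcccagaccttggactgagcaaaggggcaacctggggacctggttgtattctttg
F13a1, chr13:37050195-37050494, minus strand: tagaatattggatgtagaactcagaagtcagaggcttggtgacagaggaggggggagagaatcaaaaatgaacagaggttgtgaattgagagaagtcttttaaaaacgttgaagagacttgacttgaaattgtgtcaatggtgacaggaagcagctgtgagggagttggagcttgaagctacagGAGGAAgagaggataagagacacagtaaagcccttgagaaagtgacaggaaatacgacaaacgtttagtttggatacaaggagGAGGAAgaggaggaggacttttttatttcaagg
Dab2, chr15:6299539-6299838, plus strand: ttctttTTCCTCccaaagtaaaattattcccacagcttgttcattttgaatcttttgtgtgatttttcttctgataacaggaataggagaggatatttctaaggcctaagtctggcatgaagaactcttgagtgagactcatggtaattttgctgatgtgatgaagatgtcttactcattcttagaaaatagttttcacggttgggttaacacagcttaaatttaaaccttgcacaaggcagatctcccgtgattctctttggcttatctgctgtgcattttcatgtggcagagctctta
The Mrc1 promoter held 3 such cores, that of F13a1 2 and that of Dab2 1. On either strand the core occurred in 9289 of 32851 mouse promoters of this length, 28.3%, so its presence here is a description.

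Markers of other cell types were summed in the gated cells, and those of neutrophils were the highest of the lists given here. Summed over 8 T cell markers the level was 7.85 to 24.7 CPM, over 5 NK cell markers 3.49 to 39.9, over 8 dendritic cell markers 5.88 to 29.0 and over 7 endothelial markers 8.06 to 32.8. The 8 epithelial markers summed to 143 to 323 CPM, the 8 fibroblast markers to 107 to 520.4 and the 11 neutrophil markers, 2 of them limited by the gate, to 542 to 1185. In T cells the neutrophil list summed to 1017 to 2491 CPM and the epithelial list to 369 to 477, above the gated cells of every library. The fibroblast list summed to 455 to 761 CPM in T cells, above the gated cells in all libraries but OE-MLKL 1. Camp, a neutrophil granule gene, had no UMI in any gated cell.

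Not all genes known from resident macrophages were present. Timd4, a receptor for apoptotic cells, was at 1.51, 1.53, 0.667 and 0.836 CPM. UMIs of Lyve1, a hyaluronan receptor, occurred in 6.46, 2.44, 8.75 and 2.97% of gated cells and those of Cd163, the haemoglobin scavenger receptor, in 8.75, 21.5, 17.02 and 5.52%. Folr2, a folate receptor, was found in 59.3, 12.9, 24.3 and 14.4%, most often in OE-Vector 1. These shares are at full depth, which differed between libraries and was greatest in OE-Vector 1, and no background share is given. The class is therefore named by the genes of its gate and not as resident macrophages.

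Many cells lay close to the threshold of 2 UMIs. Cells just inside it, with a sum of 2, numbered 43, 187, 74 and 127, and cells just outside it, with a sum of 1 and no Arg1, numbered 66, 208, 59 and 160. C1qa was 5192, 3636, 4047 and 4688 CPM just inside and 5168, 3433, 4483 and 4962 CPM just outside. Dab2 was 467, 334, 265 and 520.1 CPM inside and 559, 268, 398 and 471 CPM outside, with no common order over the libraries. The gate on C1q was less close, with only 2, 31, 19 and 7 gated cells under 0.3% of UMIs.

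The share of gated cells was the lowest in the OE-Vector library. They made up 1.71% of all cells in OE-Vector 1 (exact binomial 95% interval 1.51 to 1.93), 5.32% in OE-MLKL 1 (4.998 to 5.65), 2.68% in OE-MLKL 2 (2.47 to 2.89) and 4.01% in OE-MLKL 3 (3.72 to 4.31). The OE-MLKL mean was 4.001% ± 1.32 (SD, n = 3), 2.29 percentage points above OE-Vector 1, with an exact two-sided permutation p = 0.5. With 1 library against 3 the smallest possible p is 0.25, so the design cannot reach 0.05. The intervals cover counting error only, and a share can move through other cell types as well.

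Among C1q macrophages alone the share was 14.4% in OE-Vector 1 (12.8 to 16.05), 35.8% in OE-MLKL 1 (33.99 to 37.6), 24.3% in OE-MLKL 2 (22.6 to 25.99) and 24.4% in OE-MLKL 3 (22.9 to 26.1). OE-Vector 1 lay below all 3 OE-MLKL libraries, whose mean was 28.2% ± 6.60 (SD, n = 3), and the difference of 13.8 points had an exact permutation p = 0.5. The median UMI count of gated and of Arg1-positive cells was highest in OE-Vector 1, where the share was lowest. It was lowest in OE-MLKL 1, where the share was highest. OE-MLKL 2 and OE-MLKL 3 differed in depth at nearly the same share. After thinning every cell to 1000 UMIs and gating again on the thinned counts, the shares among C1q macrophages were 9.54%, 22.0%, 27.7% and 14.2%. OE-Vector 1 was again the lowest, while the order of the OE-MLKL libraries changed.

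**Figure D1:**
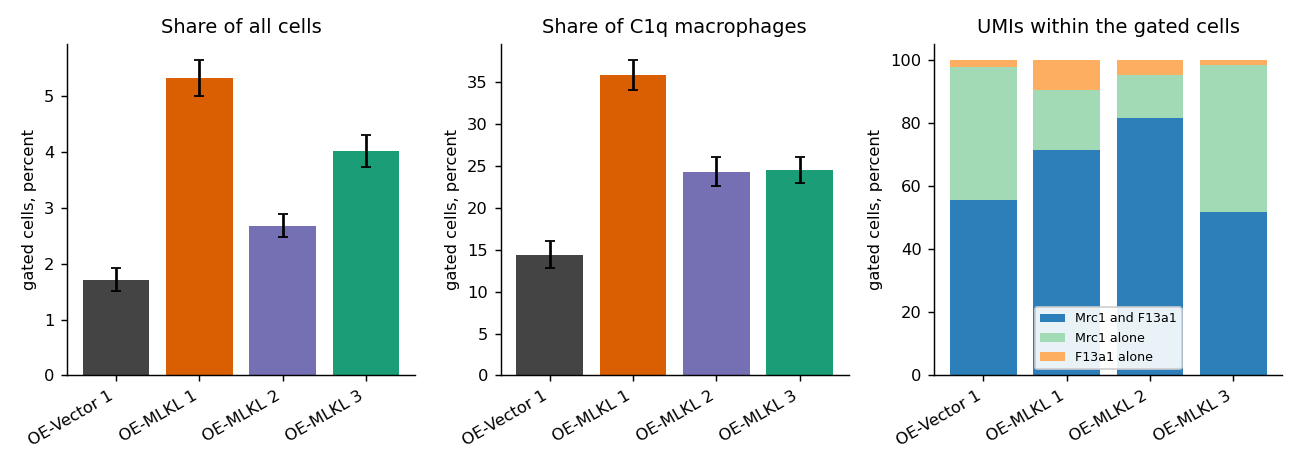
Gated cells as a percentage of all cells (left) and of C1q macrophages (middle) in each library, with exact binomial 95% intervals, and the percentage of gated cells with UMIs of both Mrc1 and F13a1 or of 1 of them (right). OE-Vector 1 is lowest in the first panels at 1.71% and 14.4%, and cells with F13a1 alone are the smallest class in every library.

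Most gated cells carried both genes. UMIs of Mrc1 and F13a1 together were found in 55.5%, 71.5%, 81.7% and 51.8% of them, Mrc1 alone in 42.2%, 18.8%, 13.5% and 46.7%, and F13a1 alone in 2.28%, 9.67%, 4.86% and 1.56%. The mixture differed more between OE-MLKL libraries than between OE-Vector 1 and OE-MLKL 3, whose shares were close to each other. The median sum of Mrc1 and F13a1 UMIs was 5, 4, 7 and 5 per gated cell, so an absence of either gene rests on few UMIs.

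The gated cells were next compared with Arg1-positive C1q macrophages of the same tumours, 1300, 1397, 1789 and 1596 cells with at least 1 Arg1 UMI and any level of Mrc1 and F13a1. Arg1-positive cells were the deeper in every library, with a median of 8685, 4864, 5197 and 7275 UMIs against 7070, 3861, 4175 and 6458. UMIs were summed per library and class and tested with edgeR's quasi-likelihood test, with the library as a block, and Benjamini-Hochberg adjustment over all genes tested, called edgeR adjusted p here. Log2 fold changes are given with standard errors from 4 libraries per class, and a gene was called at an adjusted p of at most 0.05. Of 11834 genes, 250 were higher in the gated cells (2.11%) and 451 lower (3.81%), together 5.92%. With cells thinned to 1000 UMIs 358 were called, 245 of them among these 701. Here and wherever calls after thinning are given below, the classes were redrawn on the thinned counts. Cells could change class in this way, so these are not the same cells at equal depth. The genes of the gate were left out of these tests.

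Because the classes were cut by single UMIs of Arg1, the UMIs of each cell were also split at random, the gate applied to one part and levels read from the other. In this paragraph the classes are those redrawn on that part, with 315, 907, 790 and 792 gated cells. These are not the cells gated on all UMIs, which hold no Arg1 UMI. In the held-out part, Arg1 was 134, 118, 186 and 119 CPM in the gated cells and 2108, 1069, 1407 and 1668 CPM in the Arg1-positive cells. The classes differed 15.7-, 9.09-, 7.57- and 14.0-fold in held-out Arg1. The gate had chosen the same cells by Arg1 in the other part, so this is a description. An Arg1 UMI was nevertheless found in the held-out part of 33.0%, 21.4%, 33.5% and 29.3% of the cells gated on the other part. Held-out F13a1 was 368, 545, 989 and 407 CPM in the gated cells and 371, 710.2, 939 and 657 CPM in the Arg1-positive cells. It was lower in the gated cells of 3 libraries, by little in OE-Vector 1, and higher in OE-MLKL 2. Held-out Mrc1 was higher in the gated cells of all 4 libraries, at 596, 631, 991 and 653 CPM against 518, 584, 864 and 529 CPM. Only the gated cells were chosen by Mrc1 and F13a1, so these levels are a description as well and no test of the classes. Free RNA held Arg1 at 236, 77.2, 116 and 138 CPM, and T cells held it at 27.9, 3.51, 43.8 and 52.3 CPM. The held-out level in the gated cells lay above that of T cells, chosen to be low in C1q, in every library. In OE-Vector 1 and OE-MLKL 3 the held-out level lay below that of free RNA.

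Genes of the hypoxia response and of glycolysis fell in the gated cells. Of the 18 genes of this list 17 could be matched and tested, 16 were lower and none was higher, with a median log2 fold change of -0.81 against 0.01 over all genes. Leaving out a library or changing the scaling, filter, tool or gate while keeping the block left 16 to 17 of the tested genes lower. The exception among the 17 was Ndrg1, a stress-response gene, which was not called (log2 -0.41 ± 0.13).

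Egln3, a prolyl hydroxylase that senses oxygen, was 20.2, 7.41, 5.34 and 9.82 CPM in the gated cells and 85.1, 22.3, 21.96 and 53.7 CPM in the Arg1-positive cells. It was lower in all 4 libraries, 4.41-fold in the fit (log2 -2.14 ± 0.12, edgeR adjusted p = 1.59e-07). Hilpda, which coats lipid droplets in hypoxia, was 39.4, 46.9, 23.02 and 21.7 CPM against 261, 135, 47.5 and 97.00 CPM, likewise lower throughout (log2 -1.95 ± 0.17). The mitophagy gene Bnip3, at 66.6, 66.3, 32.03 and 44.1 against 212, 149.8, 80.9 and 132 CPM, fell by 1.48 on the log2 scale.

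Genes of glucose uptake and glycolysis were lower as well, by smaller steps. The glucose transporter Slc2a1 stood at 29.8, 16.8, 24.4 and 30.5 CPM in the gated cells and 95.9, 40.4, 33.9 and 69.3 CPM in the Arg1-positive cells (log2 -1.22 ± 0.13, edgeR adjusted p = 5.94e-05). Pgk1, which makes ATP in glycolysis, was 354, 127, 171 and 187 against 779.8, 297, 320.2 and 436 CPM (log2 -1.18 ± 0.06). Each library had the lower value in the gated cells for both genes. The remaining glycolytic enzymes of the list, Aldoa, Tpi1, Pkm, Ldha, Gapdh, Eno1, Hk2 and Pfkp, had log2 fold changes of -0.81 to -0.49. Vegfa, the angiogenic factor, was lower at -1.004 and Mif, a cytokine whose gene responds to hypoxia, at -0.85.

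Promoters of Slc2a1 and Mif are shown as those of the transporter and the cytokine of this list, in the same format and build as above. Capitals mark ACGTG or GCGTG, the core of the hypoxia response element, on either strand.
Slc2a1, chr4:119108495-119108794, plus strand: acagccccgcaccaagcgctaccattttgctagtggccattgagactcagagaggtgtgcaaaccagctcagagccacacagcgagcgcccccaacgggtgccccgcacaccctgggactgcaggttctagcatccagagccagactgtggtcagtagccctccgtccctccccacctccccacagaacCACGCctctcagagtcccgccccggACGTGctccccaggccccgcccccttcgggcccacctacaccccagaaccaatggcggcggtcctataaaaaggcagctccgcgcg
Mif, chr10:75860228-75860527, minus strand: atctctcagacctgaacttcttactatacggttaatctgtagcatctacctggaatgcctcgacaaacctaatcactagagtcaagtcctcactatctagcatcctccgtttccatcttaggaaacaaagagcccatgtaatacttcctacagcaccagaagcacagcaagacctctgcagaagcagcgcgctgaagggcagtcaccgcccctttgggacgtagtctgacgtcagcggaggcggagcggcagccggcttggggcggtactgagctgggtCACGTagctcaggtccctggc
The Slc2a1 promoter held 2 cores and that of Mif 1. A core was found in 14380 of all 32851 promoters, 43.8%. Counted by gene, 15 of the 16 list genes with a promoter in the reference held it, 93.8%, against 12628 of 27025 genes, 46.7%. Both cores hold the letters CG, and the list was not matched to all genes for base composition. A core in a window is no evidence of binding.

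Nos2, Mmp12 and Slc7a2 were among the genes that fell most. Nos2, the inducible nitric oxide synthase and like Arg1 a user of arginine, was 1.51, 0.218, 2.67 and 1.46 CPM in the gated cells and 93.03, 11.1, 9.03 and 18.9 CPM in the Arg1-positive cells (log2 -4.23 ± 0.33, edgeR adjusted p = 3.11e-06). Mmp12, the macrophage elastase, whose gene overlaps Mmp1b on the other strand, was 27.2, 0.872, 9.01 and 3.97 against 502, 41.9, 57.1 and 40.6 CPM (15.01-fold lower, log2 -3.91 ± 0.20). Slc7a2, an importer of cationic amino acids such as arginine, was 6.56, 19.8, 13.01 and 16.9 against 159, 71.00, 79.1 and 232 CPM (log2 -3.11 ± 0.25). In all 3 genes every library was lower in the gated cells, and the ranges of the classes did not overlap. Saa3, an acute-phase protein, Ccl24, an eosinophil chemokine, and Hmox1, which breaks down haem, were also lower (log2 -2.94, -2.60 and -1.49), Ccl24 not under DESeq2. Of 14 inflammatory genes tested 6 were lower, Il1a, Il6, Nos2, Cxcl1, Cxcl2 and Ptges, and the chemokine gene Ccl4 was higher (log2 0.31).

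Among coagulation genes, 5 of 12 tested were lower and none was higher. F7, coagulation factor VII, was 2.52, 7.85, 5.01 and 2.51 CPM in the gated cells and 34.5, 45.6, 38.4 and 26.5 CPM in the Arg1-positive cells, 8.02-fold lower (log2 -3.003 ± 0.15, edgeR adjusted p = 8.8e-08). F10, coagulation factor X, was 8.58, 22.4, 14.3 and 3.55 against 59.2, 82.3, 62.4 and 57.6 CPM (log2 -2.50 ± 0.20). The classes did not overlap in either gene. Plaur and Thbs1, of fibrinolysis and clot adhesion, were lower by smaller amounts (log2 -0.44 and -0.80).

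Monocyte and lipid-associated genes were lower as well. Of 14 monocyte genes 9 fell and none rose (median log2 -0.67). Their list summed to 2566 to 4975 CPM in the Arg1-positive cells and to 3296 to 5160 CPM in free RNA, the higher in every library. Chil3, a chitinase-like protein, was 9.59, 472, 401 and 66.9 CPM against 235, 1886, 1221 and 480.3 CPM (log2 -2.37 ± 0.22) and Fn1, fibronectin, 512, 439, 627 and 539 against 1247, 887, 1112 and 1582 CPM (log2 -1.22 ± 0.09). Both were lower in every library. Of 16 lipid-associated genes 10 were lower, among them Gpnmb (log2 -1.42), Fabp5 (-1.06), Lgals3 (-0.79) and Spp1 (-0.56), with a median of -0.52, and 7 were lower under DESeq2. Apoe alone of that list was higher, by 0.21, a call lost under DESeq2, without shared barcodes and without each OE-MLKL library in turn. Trem2, the lipid receptor of such macrophages, was not called.

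Increases were smaller. Clec10a, a galactose-type lectin of alternatively activated macrophages (ENSMUSG00000000318, chromosome 11, 70156197 to 70170834, plus strand), was 67.6, 25.1, 88.8 and 19.2 CPM in the gated cells and 12.02, 16.3, 49.4 and 14.3 CPM in the Arg1-positive cells. It was higher in 4 of 4 libraries, most of all in OE-Vector 1, with a log2 fold change of 1.02 ± 0.22 (edgeR adjusted p = 0.0121), a call lost under DESeq2. It was the only higher gene of 14 alternative activation genes tested, of which Ccl24, Chil3, Pdcd1lg2 and Tgm2 were lower (median -0.03). Selenop, a secreted selenium carrier, was 1638, 2013, 2029 and 1601 against 1021, 1403, 1364 and 1187 CPM (log2 0.50 ± 0.04, edgeR adjusted p = 7.57e-06). Its ranges did not overlap between the classes. Siglece was among 11 named genes of this comparison that lost their calls after thinning to 1000 UMIs. Vcam1, an adhesion molecule, Lifr, the LIF receptor, Siglece, an inhibitory lectin, and Pou2f2, a transcription factor, rose by 0.57, 0.82, 0.68 and 0.50 on the log2 scale. Tmem176a and Tmem176b, neighbouring membrane protein genes that overlap each other on opposite strands, rose by 0.78 and 0.71.

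Of 19 resident-type genes tested, 6 were higher, namely Selenop, Fcrls, Gas6, Fcgrt, Nrp1 and Wwp1, and Pf4 and Vsig4 were lower, the latter not in 5 alternatives with the block nor without OE-MLKL 3. The median was 0.31. Gas6, the ligand that links dying cells to the receptors Mertk and Axl, was 207, 85.9, 145 and 108 CPM against 109, 62.4, 106 and 94.5 CPM (log2 0.45 ± 0.08), higher in all 4 libraries. Pf4, platelet factor 4, was 791, 292, 525 and 217 against 2401, 438, 564 and 471 CPM (log2 -0.90 ± 0.17), lower in all 4, a call lost under DESeq2. The count depended on the setting, with 15 of 18 higher and 1 lower after thinning to 1000 UMIs and 13 of 19 higher with at least 4 UMIs of Mrc1 and F13a1. Of 14 genes typical of Cx3cr1-expressing macrophages 6 were higher, led by Gpr34 and Cadm1, and Mmp12 was lower. Dab2 itself was 766, 362, 615 and 731 CPM against 712, 381, 645 and 735 CPM and was not called (log2 -0.06 ± 0.05, edgeR adjusted p = 0.529).

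Ighm, an immunoglobulin heavy chain gene of B cells, had the largest rise among the ranked genes, at 91.8, 7.19, 14.7 and 112 CPM in the gated cells and 23.4, 3.11, 7.26 and 49.6 CPM in the Arg1-positive cells (log2 1.37 ± 0.13, edgeR adjusted p = 1.49e-05). The call was lost after thinning, and T cells, which do not make it, held 95.1, 20.8, 31.6 and 166 CPM. Summed over 6 B cell markers the level was 28.03 to 137 CPM in the gated and 11.3 to 66.4 CPM in the Arg1-positive cells. Cd79b, part of the B cell receptor, rose by 0.53, not after thinning or under DESeq2, and the part of B cell RNA in this result was not tested. Of 12 early-response and heat shock genes 4 were higher, Jun, Jund, Egr1 and Ier2, with log2 fold changes of 0.24 to 0.39. Such genes respond to tissue dissociation, whose part was not tested. Of 6 acinar genes tested 2 were lower and none was higher (median -0.92), and of 5 neutrophil genes 1 was lower. The acinar list summed to 32.2 to 106 CPM in the gated and 41.5 to 235 CPM in the Arg1-positive cells.

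Of 11 complement genes 5 were lower, C5ar1, Cfp, Cfb, Itgam and Vsig4, and none was higher. Of 14 iron and haem genes the ferritin chains Fth1 and Ftl1 fell beside Hmox1, with log2 fold changes of -0.51 and -0.34, and Hpgds, a prostaglandin synthase, rose by 0.32. Cd274, which encodes PD-L1, and Pilra, an inhibitory receptor, were lower among 10 phagocytosis checkpoint genes (-0.40 and -0.47). None of 7 necroptosis genes was called by edgeR, Mlkl, Ripk1 and Ripk3 among them. Of 9 MHC class II genes Ciita, their transactivator, was higher (0.40), and the others were not called (median 0.05). This depended on the setting. The call of Ciita was lost under DESeq2, with at least 4 UMIs of Mrc1 and F13a1, with the gate on a random part of the UMIs and without OE-MLKL 3. After thinning to 1000 UMIs, which redrew the classes, 4 of 7 tested were lower, none had a positive value and the median was -0.47. C5ar1, Cd274 and Pilra each lost their calls with 1 or another library left out.

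The calls rest on pairing the classes within tumours. Without the block no gene was called by edgeR, with 267 genes at an unadjusted p under 0.05, and DESeq2 with the block called 368.

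**Figure D2:**
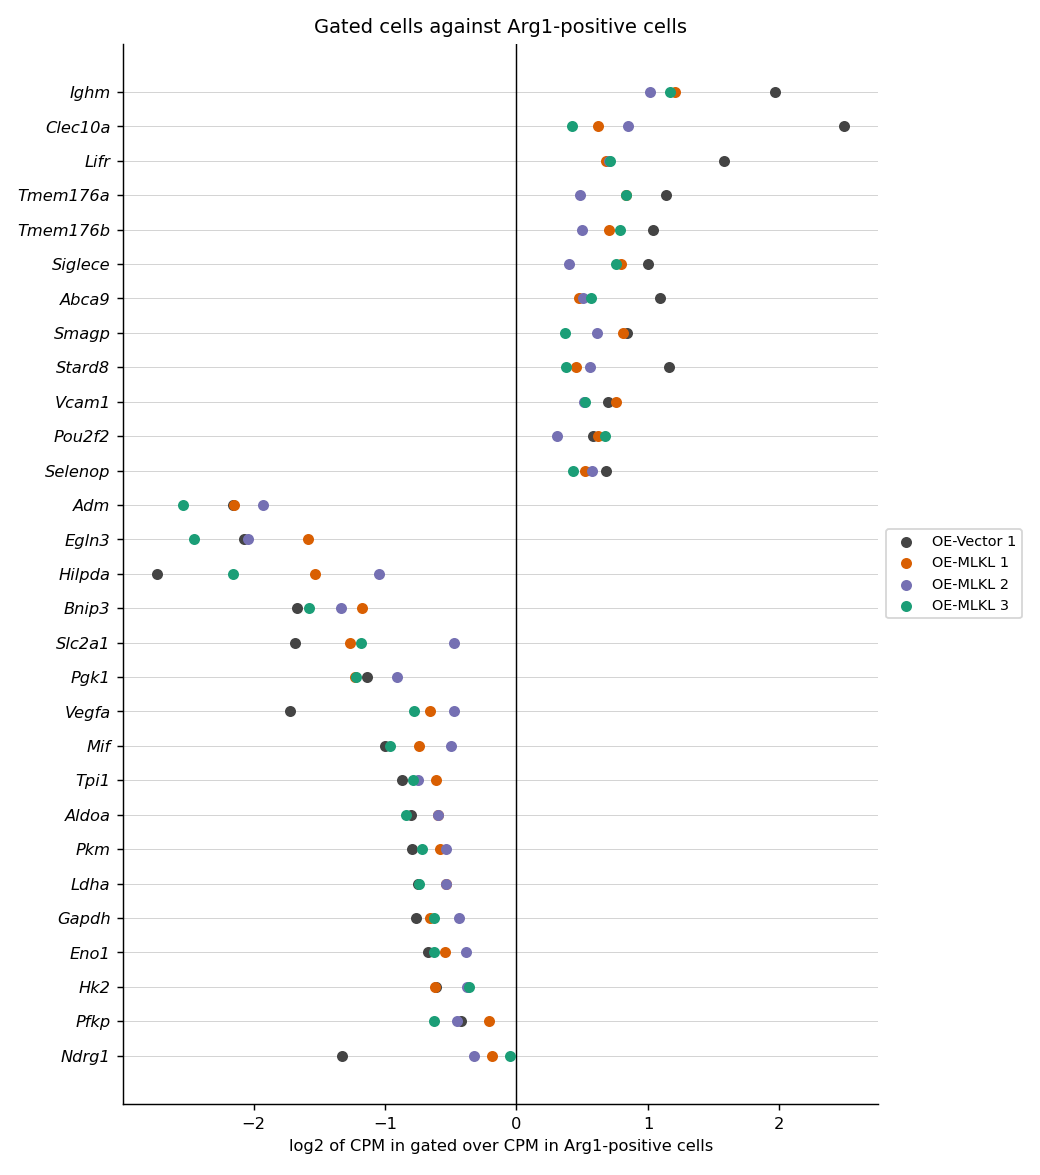
Log2 ratio of CPM in gated cells to CPM in Arg1-positive C1q macrophages, with 1 point per library, for the 12 leading higher genes (top) and the 17 tested genes of the hypoxia and glycolysis list (bottom). Points of the list lie left of 0 in every library, including those of Ndrg1, which was not called.

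The second comparison set the gated cells against C1q macrophages that also lacked Arg1 and had at most 1 UMI of Mrc1 and F13a1, called low cells, 269, 365, 136 and 589 per library. The low cells were shallower, with a median of 1266, 3151, 2348 and 1136 UMIs against 7070, 3861, 4175 and 6458 in the gated cells. Of 9902 genes tested in the same way, 226 were higher in the gated cells (2.28%) and 238 lower (2.4%), together 4.69%. Of the genes named below, Slc2a1, Mif, Aldoa, Pkm, Gapdh, Slc7a11, Mertk, Siglec1, Cfb, Cxcr2, Il1r2, Mmp9 and Retnlg lost their calls when all cells were thinned to 1000 UMIs.

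Genes of resident-type macrophages rose together. Of the 21 genes of this list 17 had enough counts to be tested and 17 were higher, with a median log2 fold change of 1.17 against -0.01 over all genes. Timd4, Vsig4, Ednrb and Cd209f were too low in both classes. After thinning and under DESeq2 the count was again 17 of 17, and it was 17 of 19 where the gate and the levels used separate UMIs.

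Scavenger receptor genes were among those higher. Cd163 stood at 26.2, 159, 116 and 19.2 CPM in the gated cells and 1.20, 43.3, 19.4 and 1.71 CPM in the low cells (log2 2.23 ± 0.20, edgeR adjusted p = 9.68e-07). Lyve1 was 50.96, 9.37, 52.4 and 15.04 against 1.20, 1.49, 2.78 and 2.28 CPM (log2 3.58 ± 0.35), and Stab1, the scavenger receptor stabilin, 735, 354, 625 and 592 against 312, 196, 244 and 305 CPM (log2 1.06 ± 0.08). Each was higher in all 4 libraries, and the classes did not overlap for Lyve1 and Stab1. Levels of Lyve1 and Cd163 nevertheless varied widely among the gated cells, with Cd163 highest in OE-MLKL 1 and lowest in OE-MLKL 3.

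Folr2 was 212, 35.96, 84.4 and 35.5 CPM in the gated cells and 84.9, 9.69, 13.9 and 8.54 CPM in the low cells (log2 1.65 ± 0.16). Cbr2, a carbonyl reductase, and Clec10a had log2 fold changes of 1.89 ± 0.15 and 1.87 ± 0.24, and Fcna, a soluble lectin of innate immunity, 1.64 ± 0.19. Gas6, at 207, 85.9, 145 and 108 against 53.8, 44.7, 36.1 and 31.3 CPM, was 3.01-fold higher with no overlap of the classes (edgeR adjusted p = 9.68e-07). Selenop was 1638, 2013, 2029 and 1601 against 748, 1325, 761 and 712 CPM (2.06-fold, edgeR adjusted p = 6.49e-07). Clec10a, Gas6, Selenop, Fcrls, Wwp1, Nrp1 and Fcgrt were thus called higher than in either other class of C1q macrophages, in comparisons that share the gated cells.

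Dab2 rose here, from 422, 247, 336 and 389 CPM in the low cells to 766, 362, 615 and 731 CPM in the gated cells (1.72-fold, log2 0.78 ± 0.08, edgeR adjusted p = 2.55e-06), higher in 4 of 4 libraries. Of 17 scavenger and phagocytic receptor genes tested 7 were higher, with Mertk, Itgb5 and Lrp1 beside those named, and none was lower. These 3 calls were lost without OE-MLKL 3. Of 19 lysosomal genes 6 were higher, the proteases Ctsb, Ctsd and Lgmn among them, with log2 fold changes of 0.44, 0.67 and 0.47. The transcription factor Maf was higher by 0.81. Adgre1, which encodes the macrophage marker F4/80, was higher by 0.58, so that the low cells also held less of a general macrophage gene.

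Of 11 chemokine genes 7 were higher and Ccl5 was lower, with a median of 0.60. Ccl7, which attracts monocytes, was 469.7, 71.3, 415 and 384 CPM in the gated cells and 127, 41.8, 122 and 149 CPM in the low cells (log2 1.46 ± 0.12, edgeR adjusted p = 6.49e-07). Pf4 rose by 1.37, Ccl2 by 0.88, Ccl12 by 0.80 and Ccl8 by 0.71 on the log2 scale. Ccl5, which attracts T cells and is also made by them, was 137, 177, 196 and 190.1 against 641, 417, 630.4 and 379 CPM (log2 -1.52 ± 0.14), lower in all 4 libraries.

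Antigen presentation, interferon and monocyte genes were lower in the gated cells. Of 9 MHC class II genes 6 fell (median -0.51). H2-Eb1 (ENSMUSG00000060586, chromosome 17, 34305867 to 34316674, plus strand) was 1634, 555, 735 and 2838 CPM against 2900.2, 1268, 1633 and 3247 CPM (log2 -0.85 ± 0.11, edgeR adjusted p = 8.36e-05). It was lower in each library, by little in OE-MLKL 3, the library with the highest level, and the ranges overlapped. H2-Ab1, H2-Aa, Cd74, H2-DMb1 and H2-DMa had log2 fold changes of -0.84 to -0.41.

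Of 14 interferon-induced genes 8 were lower (median -0.69), among them the antiviral Isg15 (log2 -1.39) and the T cell chemokines Cxcl9 (-1.02) and Cxcl10 (-0.70). Cxcl9 was 695, 260.4, 719.8 and 999 CPM in the gated cells and 1567, 512, 1516 and 1741 CPM in the low cells. Without OE-Vector 1, 4 of 14 interferon-induced genes were called lower. Of 13 monocyte genes 9 were lower (median -0.92). The monocyte list summed to 1710 to 4407 CPM in the low cells, below free RNA at 3296 to 5160 CPM in every library. Ccr2, the chemokine receptor of blood monocytes, was 112, 35.7, 69.4 and 76.5 CPM against 225, 90.2, 319 and 124 CPM (log2 -1.26 ± 0.16, edgeR adjusted p = 5.53e-05), lower in 4 of 4 libraries. Ly6c2 fell by 1.38 on the log2 scale. With cells thinned to 1000 UMIs 5 of 13 monocyte genes were called lower. The hypoxia and glycolysis list had 5 of 16 genes lower, Slc2a1, Mif, Aldoa, Pkm and Gapdh, but 2 under DESeq2, 1 without OE-MLKL 2 and none without OE-Vector 1 or without OE-MLKL 3. The cystine transporter Slc7a11 fell by 1.34 on the log2 scale, a call lost under DESeq2.

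Signs of other cells moved with these results. Of 5 neutrophil genes tested outside the gate, 5 were lower in the gated cells, Csf3r, Cxcr2, Retnlg, Mmp9 and Il1r2. The neutrophil list summed to 542 to 1185 CPM in the gated and 547 to 1934 CPM in the low cells. Of 7 fibroblast genes 5 were lower, led by Col1a2 (log2 -1.87), and their list summed to 107 to 520.4 and 93.3 to 1075 CPM. Col1a2, Col3a1 and Dcn were no longer called without the cells marked as doublets. Tff3, Zg16 and Fcgbp, products of mucus-secreting epithelium, had log2 fold changes of -2.32, -1.85 and -2.103, the calls of Tff3 and Zg16 being lost under DESeq2. Their part in the lower monocyte, interferon and MHC class II genes was not tested.

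Complement genes split here. C3ar1, C5ar1 and Cd93 were among those higher, and C3 and Cfb were lower. Of 10 phagocytosis checkpoint genes Sirpa, the receptor of CD47, and Siglec1, a sialic acid lectin, were higher (log2 0.28 and 0.69), while Pilrb1, Cd24a and Cd274 were lower (-1.15, -0.79 and -0.54). Of 7 necroptosis genes Zbp1, a sensor of nucleic acids that is also induced by interferon, was lower (-0.70). The checkpoint calls, and those of C3ar1 and C5ar1, were lost without OE-MLKL 3. Igf1, the growth factor, whose call was lost in the same way, was higher by 0.90, and Cx3cr1, the fractalkine receptor, by 0.65.

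As before, no gene was called by edgeR without the block (291 at an unadjusted p under 0.05), and DESeq2 called 233. Under DESeq2 17 of the named genes lost their calls, and 6 of 14 interferon-induced, 5 of 9 MHC class II and 6 of 11 chemokine genes were called in the direction given. Without OE-MLKL 3, 226 genes were called.

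**Figure D3:**
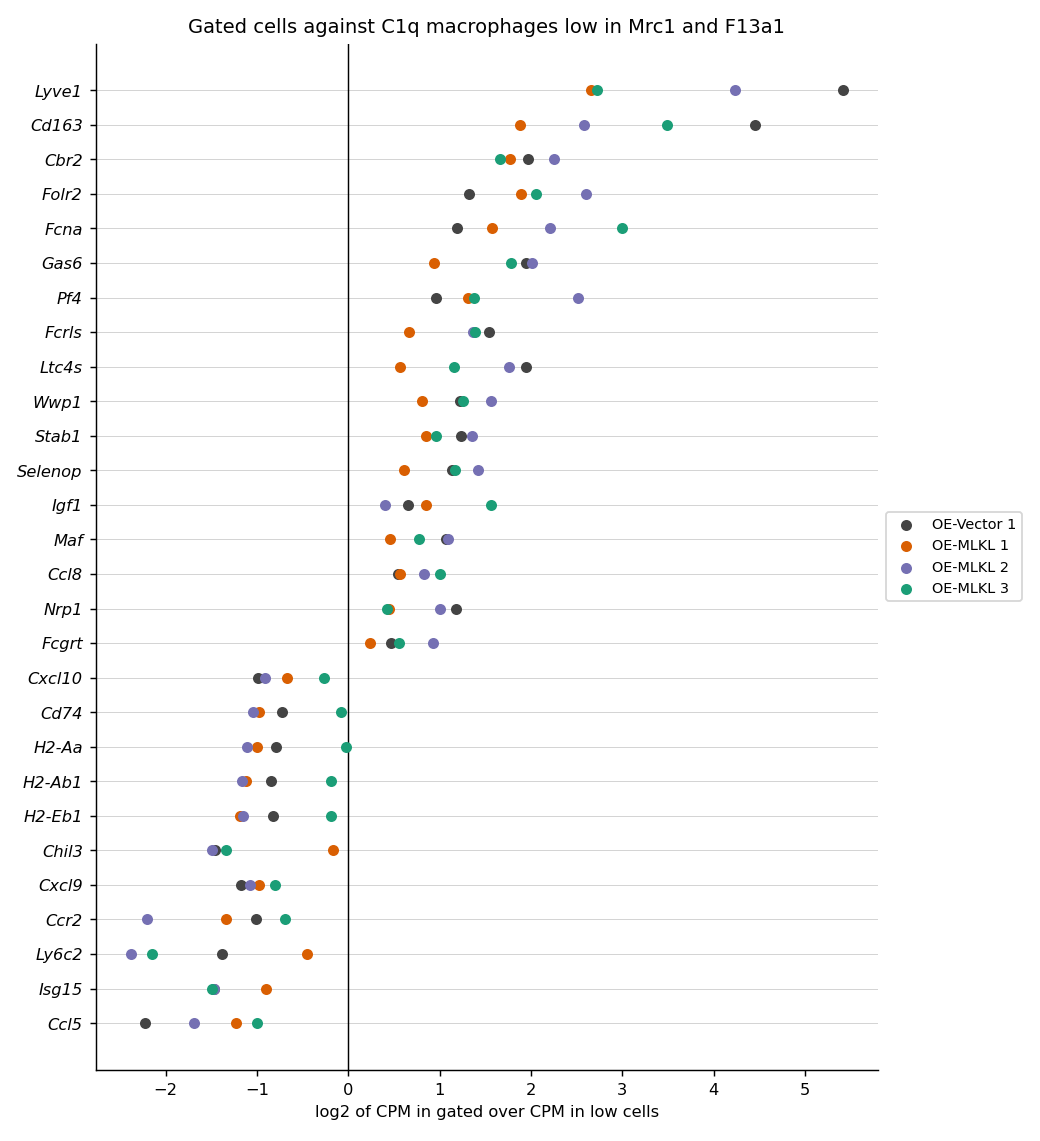
Log2 ratio of CPM in gated cells to CPM in low cells, with 1 point per library, for the 17 tested resident-type genes (top) and for chosen chemokine, MHC class II, monocyte and interferon genes that were lower (bottom). The resident-type genes lie right of 0 in all 4 libraries, while MHC class II genes lie close to 0 in OE-MLKL 3.

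The gate takes the sum of 2 genes, so cells with F13a1 alone were compared with cells with Mrc1 alone. There were 6, 95, 30 and 11 cells of the former and 111, 185, 83 and 330 of the latter, so OE-Vector 1 and OE-MLKL 3 carried few UMIs. F13a1-only cells were also the shallower in every library, with median UMI counts of 3672, 3161, 3267 and 4293 against 7583, 3915, 4535 and 6629. Of 5559 genes tested, 14 were higher in F13a1-only cells (0.252%) and 13 lower (0.234%), together 0.486%, with a median log2 fold change of -0.04.

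Monocyte genes were higher in the F13a1-only cells, 6 of 10 tested, and none was lower (median 0.78). Their list summed to 4418, 3528, 6438 and 3193 CPM in F13a1-only cells and 3296, 5160, 4984 and 3861 CPM in free RNA. Free RNA was thus the higher in OE-MLKL 1 and OE-MLKL 3, and its part was not tested. Ly6c2, a surface antigen of classical monocytes, was 361, 103, 166 and 62.6 CPM in F13a1-only cells and 4.22, 18.2, 8.51 and 3.11 CPM in Mrc1-only cells (log2 3.72 ± 0.40, edgeR adjusted p = 3.33e-17). The lowest F13a1-only value stood above the highest Mrc1-only value. F13a1-only cells held 24898 UMIs in all in OE-Vector 1 and 47910 in OE-MLKL 3, so their values there rest on few UMIs. The fit leaves 3 residual degrees of freedom, and p-values this small in this comparison rest on a spread that edgeR shares across genes. Chil3 was 80.3, 1249, 2400.4 and 104 against 6.34, 237, 374 and 65.3 CPM (log2 2.36 ± 0.19), and Plac8, Ccr2, S100a4 and Thbs1 rose by 1.83, 1.36, 0.86 and 0.71. Il1b, the inflammatory cytokine, rose by 0.64. Thinning to 1000 UMIs left none of 6 tested monocyte genes called, and a gate of at least 4 UMIs left 1 of 7. Ly6c2 lost its call under DESeq2.

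MHC class II genes were lower in the F13a1-only cells, 4 of 7 tested, with a median of -0.88. H2-Eb1 was 1406, 453, 846 and 1419 CPM against 2171, 1012, 1920.3 and 3649.9 CPM (log2 -1.20 ± 0.14, edgeR adjusted p = 7.71e-15), lower in each library. H2-Aa, H2-Ab1 and Cd74, the invariant chain, had log2 fold changes of -1.01, -0.88 and -0.80. The H2-Aa and H2-Eb1 values moved in 1 direction in all libraries, whereas H2-Ab1 and Cd74 were higher in the 6 F13a1-only cells of OE-Vector 1 than in its Mrc1-only cells. Of 8 interferon-induced genes tested, Cxcl9, Cxcl10 and Gbp2 fell by 1.35, 1.10 and 0.74 on the log2 scale and Rsad2 rose by 1.66, and 1 lower and no higher call was made under DESeq2 and under limma-voom. Outside that list Ifi27l2a rose by 1.15, a call lost without OE-Vector 1. None of 14 resident-type genes tested was called (median 0.05), and Dab2 was not called either (log2 -0.27 ± 0.17, edgeR adjusted p = 0.932). Single calls were fragile, as 11 genes were called under DESeq2, 16 without OE-MLKL 2 and 1 without the block. With the cells marked as doublets removed 24 genes were called, 20 of them among the 27. Without OE-Vector 1 and OE-MLKL 3, which held few F13a1-only cells, 22 were called, 15 of them among the 27, and Plac8, Ccr2, Thbs1 and Il1b were not.

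**Figure D4:**
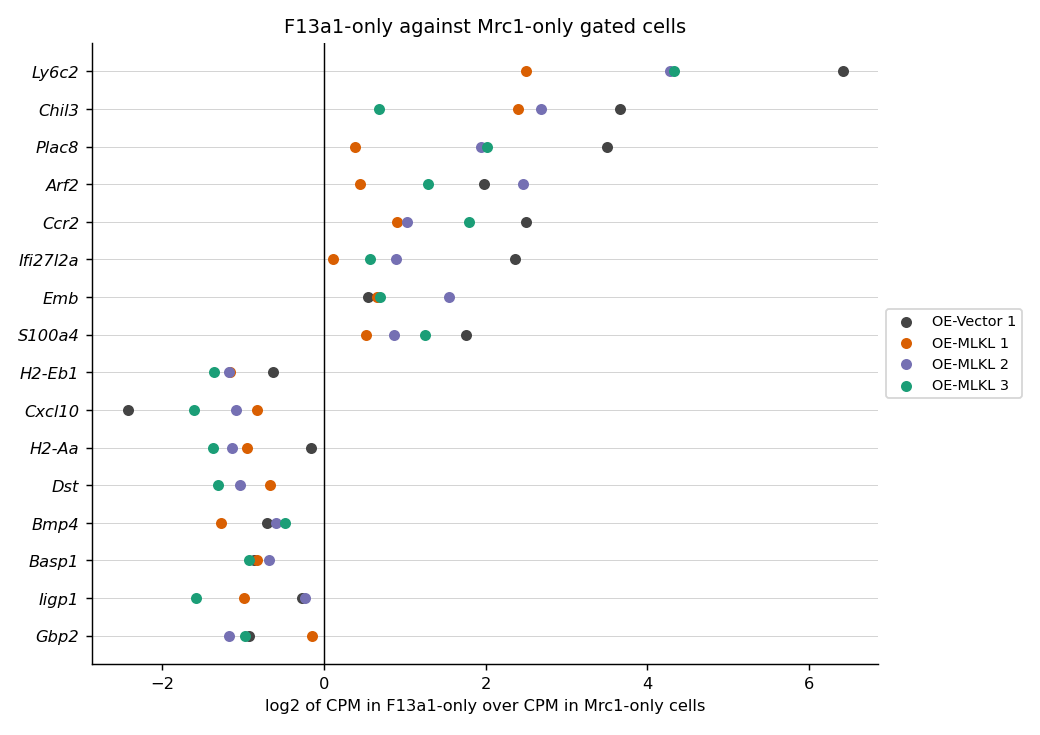
Log2 ratio of CPM in F13a1-only to CPM in Mrc1-only gated cells, with 1 point per library, for the 8 leading genes in each direction. Ly6c2 lies right of 0 and H2-Eb1 left of 0 in all libraries, and Dst has no point for OE-Vector 1, where F13a1-only cells held none of its UMIs.

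Gated cells of the groups were compared last. In this fit 1 OE-Vector library stood against 3, which leaves 2 residual degrees of freedom, and a difference between the groups cannot be told apart from one between single tumours. Of 11939 genes edgeR called 3, all lower in OE-MLKL (0.0251%) and none higher (0.0%). At an unadjusted p under 0.05 there were 621 genes. OE-Vector 1 lay outside the range of the OE-MLKL libraries in 55.0% of all genes, the background of the counts below.

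The called genes were granzymes of killer cells, and nearly all of their UMIs in OE-Vector 1 lay in 1 cell per gene. Gzmc was 82.2, 0.218, 0.667 and 0.418 CPM in the gated cells (log2 -7.61 ± 0.41, edgeR adjusted p = 0.00262). Of its 163 UMIs in OE-Vector 1, 161 lay in a single cell, 98.8%. Gzmd and Gzmf, neighbours in the same gene cluster, had 63 of 64 and 70 of 74 UMIs in their leading cell. The 8 gated cells of OE-Vector 1 with a granzyme UMI had Klrd1, a receptor of NK cells, at 299 CPM, against 5.76 CPM in the other 255, and C1qa at 3855 CPM. These calls were lost once the cells marked as doublets were left out. They were also lost under limma-voom, after thinning to 1000 UMIs and with at least 4 UMIs of Mrc1 and F13a1. The same held with at most 1 UMI of Arg1 and with the gate on a random part of the UMIs.

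In the main fit no list had a called member, while some lists had called members in alternative settings. Values are given as description. Interferon-induced genes were on the lower side in OE-MLKL in 16 of 16 (median log2 -1.03 against 0.06 over all genes), with OE-Vector 1 outside the OE-MLKL range in 12. Their summed level was 2069, 844, 1606 and 2151 CPM, so the groups overlapped and OE-MLKL 3 lay above OE-Vector 1. Irf7, a regulator of interferon genes, was 53.99, 12.2, 18.02 and 14.6 CPM and Ifi27l2a, an interferon-induced mitochondrial protein, 423, 46.9, 74.1 and 65.4 CPM (edgeR adjusted p = 0.551 and 0.1). In both, OE-Vector 1 stood above all 3 OE-MLKL libraries. Ifi27l2a was called under DESeq2, after thinning, without the filter on low counts, and without OE-MLKL 1 or OE-MLKL 3.

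Resident-type genes were on the lower side in 16 of 20 (median -0.66, OE-Vector 1 outside the range in 11). Folr2 was 212, 35.96, 84.4 and 35.5 CPM, more than in any OE-MLKL library (edgeR adjusted p = 0.873), and Slc40a1, the iron exporter ferroportin, 57.5, 7.19, 4.004 and 12.1 CPM (edgeR adjusted p = 0.56). Retnla, a product of alternatively activated macrophages, was 251, 1.31, 8.34 and 20.1 CPM, but 66.3% of its OE-Vector 1 UMIs lay in 5 cells. Nr1h3, the sterol receptor LXRα, was 62.1, 8.06, 15.3 and 25.5 CPM. Selenop, by contrast, was 1638, 2013, 2029 and 1601 CPM and overlapped between the groups. In the hypoxia and glycolysis list 16 of 17 genes lay on the lower side (median -0.57).

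The genes named on the other side varied widely among the OE-MLKL libraries. Chil3 was 9.59, 472, 401 and 66.9 CPM (log2 4.97 ± 1.30, edgeR adjusted p = 0.873), lowest in OE-Vector 1 and highest in OE-MLKL 1. It was also present in T cells at 12.3, 107, 179 and 111 CPM and in free RNA at 116, 644, 821 and 447 CPM, in the same order of OE-Vector 1 below the others. Mrap, an accessory protein of melanocortin receptors, had no UMI in OE-Vector 1 and 53.6, 34.04 and 2.93 CPM in the OE-MLKL libraries. Klf9, a transcription factor induced by glucocorticoids, was 16.7, 188, 201 and 68.1 CPM, and Jaml, an adhesion molecule, 12.6, 342, 165 and 18.4 CPM. For Mrap, Jaml and Apoc4 the value of OE-MLKL 3 lay nearer to OE-Vector 1 than to OE-MLKL 1. Without OE-MLKL 3, 449 genes were called, so that this library decides how many pass.

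The values of other lists stand beside these, with no member called in the main fit. The median was 1.91 over 7 epithelial genes tested, whose list summed to 170.0, 247, 323 and 143 CPM and overlapped between the groups. It was 0.73 over 12 early-response and heat shock genes, which summed to 5895, 11219, 9868 and 12370 CPM, and OE-Vector 1 lay outside the range in 10 of them. Over 7 T cell genes it was -1.34, at a summed 24.7, 7.85, 11.3 and 21.7 CPM, and over 3 NK cell genes -1.11, at 39.9, 3.49, 18.7 and 18.6 CPM. Over 8 fibroblast genes it was 0.99, at 107, 520.4, 162 and 133 CPM. OE-Vector 1 had the highest sum of the T and NK cell lists and the lowest of the fibroblast list. The part of these differences in the values above was not tested.

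**Figure D5:**
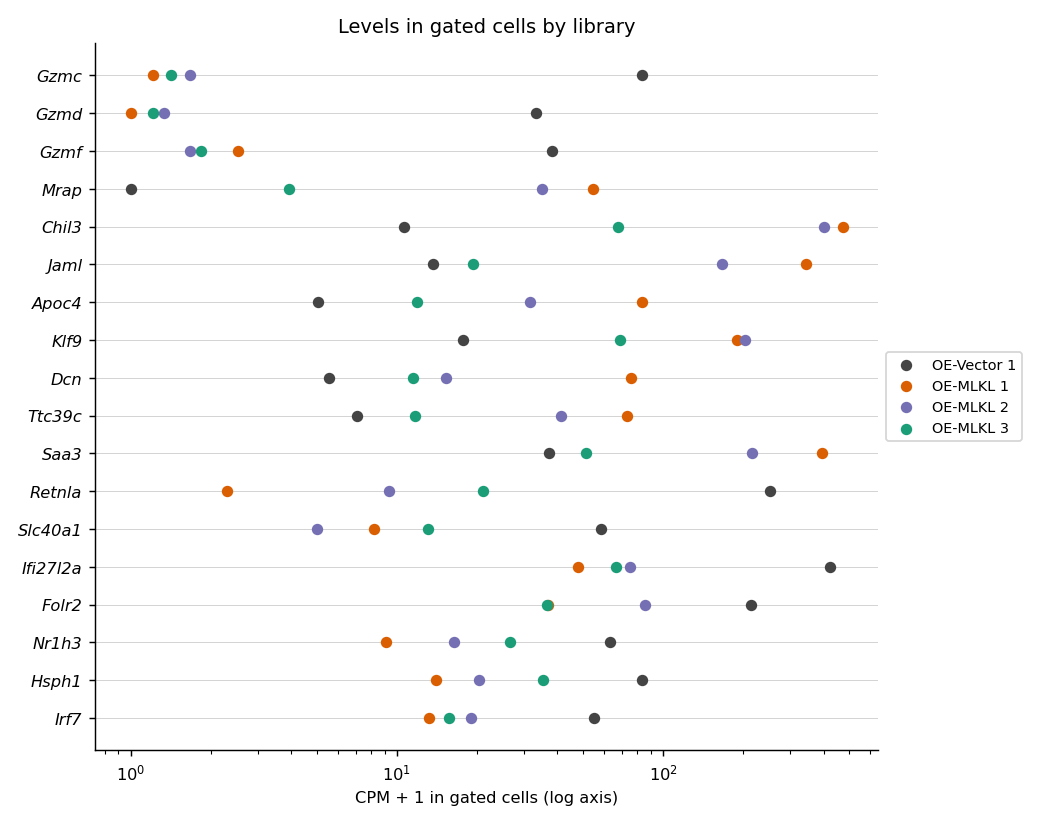
CPM + 1 in the gated cells of each library on a log axis, for the 3 called granzyme genes (top) and the 15 genes named by rank without a call. OE-Vector 1 lies outside the range of the OE-MLKL libraries in each of these genes, as the rule for naming them required.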

How the data were processed

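Single-cell RNA libraries of pancreatic tumours were read from the UMI count matrices that the authors deposited, one raw matrix of whole-number counts per library with every barcode. The submitters' processing notes name Cell Ranger 2.1.1, the file headers 7.1.0 and the study's methods another release, and whether introns were counted was not established. Of the 32285 gene identifiers 32158 were found in GENCODE vM21 (GRCm38), which gave positions. Promoters came from RefSeq (GRCm38.p6).

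Barcodes were filtered and gated as stated above, and counts were summed per library and class. The members and the 32 gene lists were chosen with earlier results of these data known. No sample was left out of a fit except as named. Comparisons between classes were fitted with edgeR 4.0.16 (TMM scaling, filterByExpr, quasi-likelihood test, library as block) in R 4.3.3, and the comparison of groups without a block. Standard errors were the log2 fold change divided by the square root of F. Shares were compared by an exact two-sided permutation test over libraries. Alternatives used DESeq2 1.42.0, limma 3.58.1, other scaling, filters and gates, thinning to 1000 UMIs, left-out libraries and, chosen after seeing the data, a gate on a random part of the UMIs and, for F13a1-only cells, leaving out the libraries with few of them. Fits and shares after thinning used classes redrawn on the thinned counts, without cells below 1000 UMIs. Doublets were scored against simulated ones at an expected 0.8% per 1000 cells. T cells with at least 3 UMIs of Cd3 genes and barcodes of at most 100 UMIs gave the level of free RNA. The T cells also had to lie below the C1q threshold of the macrophage gate. T cells carrying more macrophage RNA were thus left out, and levels of macrophage genes in those kept may understate RNA from outside. Python 3.11.15, numpy 2.4.6, scipy 1.17.1 and pandas 2.3.3 were used.

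Genes were named by rank among those at 50 CPM or more in the higher class that were called and moved the same way in every library, 12 per direction against both other classes and 8 for F13a1-only cells. For the groups the rule took up to 12 called genes and 8 per direction at 20 CPM or more with OE-Vector 1 outside the OE-MLKL range. Called list members, up to 4 of the highest list members, the markers and Mlkl were added, and further list genes were named after their values were seen. In the simulation below, changes were placed only in genes with a minimum expected count in every library and class. Recovery at lower counts was not tested, and F13a1-only cells had the fewest UMIs of the classes. Tested on simulated data, edgeR recovered 95.5% of 2-fold changes against Arg1-positive cells (33 of 230 calls false, 11736 genes), 98.5% against low cells (22 of 221, 9745 genes), 95.5% in F13a1-only cells (2 of 199, 5365 genes), and between groups 13.4% of 2-fold and 97% of 16-fold changes (26 of 139, 11607 genes).

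Some results of the lists are not reported here.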

Additional observations from a re-analysis of the deposited data

Results flagged for a closer look

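In 2 genes, both not called, OE-Vector 1 moved in the opposite direction to the OE-MLKL libraries against Arg1-positive C1q macrophages. Dab2 was higher in the gated cells of OE-Vector 1, at 766 against 712 CPM, and lower in those of all 3 OE-MLKL libraries, with a log2 fold change of -0.0601 over the 4 libraries. Ripk3, a kinase of necroptosis, was 18.7, 6.32, 9.34 and 8.36 CPM in the gated cells and 16.6, 7.97, 13.2 and 10.8 CPM in the Arg1-positive cells, with a log2 fold change of -0.30. The difference between the groups was not tested for either gene. How many of all 11834 genes split in this way is not given here, and OE-Vector is 1 library. No difference between the groups is read from these 2 genes.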

How the results depend on the processing

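No paired analysis of the groups was possible, as the labels pair no OE-Vector tumour with an OE-MLKL tumour. In the other comparisons the library was the block. Against Arg1-positive cells 701 genes were called, against 368 with DESeq2, 1251 with no filter on low counts, 358 after thinning, 0 with no replicate block and 390 to 669 with a library left out, lowest without OE-MLKL 3; the share of higher genes among those called was 35.7%, 25.3% with DESeq2 and 20.7% with no filter. Against low cells the count was 464, against 233 with DESeq2, 0 with no replicate block and 226 to 452 with a library left out, with 289 without OE-Vector 1. In F13a1-only cells it was 27, against 11 with DESeq2, 12 with limma-voom, 9 after thinning, 13 with at least 4 UMIs, 1 with no replicate block and 16 to 28 with a library left out. Between the groups it was 3, against 10 with DESeq2, 20 with no filter, 3 to 449 with a library left out (19 without OE-MLKL 1), and 0 with limma-voom, at least 4 UMIs, doublets removed, a random part of the UMIs or at most 1 UMI of Arg1. Directions turned for Dab2 against Arg1-positive cells (0.27 thinned, 0.0666 with at least 4 UMIs, 0.0476 on a random part) and in F13a1-only cells (0.0678 thinned), against Arg1-positive cells also for Ciita (-0.49 thinned), Trem2 (0.0799 thinned) and Ripk1 (0.33 thinned, 0.0393 with doublets removed, 0.0119 on a random part, -0.11 to 0.0109 with a library left out), for Basp1 (0.21 thinned) and Il1b (-0.20 with at least 4 UMIs) in F13a1-only cells, and between groups for Gzmf (0.34 on a random part) and Dcn (-0.0634 with at most 1 UMI of Arg1). The cause was not tested. OE-Vector 1 had the lowest share of gated cells in every setting. Few cells limit F13a1-only values, and 1 OE-Vector library limits every comparison of the groups.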
